A study of Mus musculus with 9 samples.

Results

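The 37 genes described here encode chaperones and folding enzymes of the endoplasmic reticulum (ER), the machinery that removes misfolded proteins from it, and the sensors, transcription factors and targets of the unfolded protein response. They form a list named by function, and all 37 were found among the 55401 mouse gene identifiers of the count table. Of these, 36 passed the filter on low counts and were tested, and Chac1 did not. The libraries came from mammary tumors of female C57BL/6 mice that all carried the MMTV-PyMT transgene, which expresses the polyoma middle T oncogene from the mouse mammary tumor virus promoter, together with a human MUC1 transgene. Tumors with Hspa1a and Hspa1b intact (Hspa1a/Hspa1b+/+, WT) gave 4 libraries from animals of 122 to 132 days, and tumors lacking both genes (Hspa1a/Hspa1b-/-, KO) gave 5 from animals of 120 to 125 days. These neighbouring genes encode HSP72, the stress-inducible HSP70 chaperone of the cytosol. Tumors were dissociated with collagenase and trypsin before RNA was extracted, so the libraries represent the cells that were recovered, and the question put to the members was whether their levels differed between the genotypes.

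Secreted and membrane proteins fold in the ER, where the HSP70 family member BiP, its J-domain partners, lectin chaperones and disulfide-forming enzymes handle new chains. When unfolded chains accumulate, the membrane sensors IRE1, PERK and ATF6 are released from BiP. IRE1 splices Xbp1 mRNA, and ATF6 is cleaved to a transcription factor. PERK phosphorylates eIF2, which favors translation of ATF4, and ATF4 acts upstream of CHOP. Milk-producing mammary epithelium is a secretory tissue that relies on this system. Gene counts measure mRNA levels only, so neither Xbp1 splicing nor ATF6 cleavage nor eIF2 phosphorylation was measured here.

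The DNA element through which ATF6 and XBP1 act is shown first, because several members share it and few other genes carry it in the window searched. The ER stress response element is CCAAT, then 9 bases, then CCACG, and it was searched on both strands in the 250 bases before each start in RefSeq, build GRCm38.p6. Of the 37 members, 32 had an entry in the RefSeq promoter table, and 9 of these 32 (28.1%) held the element. Over all 27025 genes with an entry, 35 (0.130%) held it. A match is a description of the letters in this window and not evidence of binding. Each match is printed 5′ to 3′ in the orientation of the element, with the parts searched for in capitals and the 9 bases between them in lower case; Hsp90b1 had 2 matches.
Hspa5: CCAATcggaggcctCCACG
Hsp90b1: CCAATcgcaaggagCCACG
Hsp90b1: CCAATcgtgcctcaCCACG
Calr: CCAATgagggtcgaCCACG
Canx: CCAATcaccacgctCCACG
Creld2: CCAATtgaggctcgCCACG
Dnajc3: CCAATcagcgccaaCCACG
Pdia6: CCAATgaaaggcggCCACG
Syvn1: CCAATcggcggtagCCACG
Derl3: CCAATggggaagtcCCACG

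The spacer differed in every one of these 10 matches. The matches in Hspa5, from 65 to 47 bases before the start, and in Syvn1, from 44 to 26 bases, lay closest to it, and the farther match of Hsp90b1 lay from 212 to 194 bases before it. Herpud1 held the second form of the element (ATTGG, 1 base, CCACG), which 10 of the 27025 genes (0.037%) held, from 52 to 42 bases before its start.
Herpud1: ATTGGgCCACG

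The core of the UPR element (TGACGTGG) was found in 163 of the 27025 promoters (0.603%) and the core of the amino acid response element (TGATGNAAT), bound by ATF4, in 246 (0.910%). Neither was found in the 32 member promoters, which says only that these letters are not in this window. The promoters of Calr and Hspa5 are shown whole, since these genes encode the lectin chaperone with the smallest unadjusted p among carriers of the element and BiP itself. The capitals mark the element. The Calr promoter is chr8:84846932-84847181 on the minus strand, where the element runs in reverse, and that of Hspa5 is chr2:34771840-34772089 on the plus strand. The gene annotation used for positions starts Hspa5 earlier, at 34771970, within this window.
Calr: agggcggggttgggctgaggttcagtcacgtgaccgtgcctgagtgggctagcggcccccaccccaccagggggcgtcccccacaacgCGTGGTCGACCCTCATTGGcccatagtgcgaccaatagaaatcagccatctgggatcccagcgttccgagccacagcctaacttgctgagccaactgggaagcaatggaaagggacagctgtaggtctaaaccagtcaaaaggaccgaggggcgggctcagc
Hspa5: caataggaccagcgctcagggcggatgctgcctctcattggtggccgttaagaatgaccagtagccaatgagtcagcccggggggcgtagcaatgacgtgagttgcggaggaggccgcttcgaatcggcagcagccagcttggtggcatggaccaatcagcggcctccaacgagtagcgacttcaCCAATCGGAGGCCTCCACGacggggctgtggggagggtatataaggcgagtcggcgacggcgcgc

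**Figure D1:**
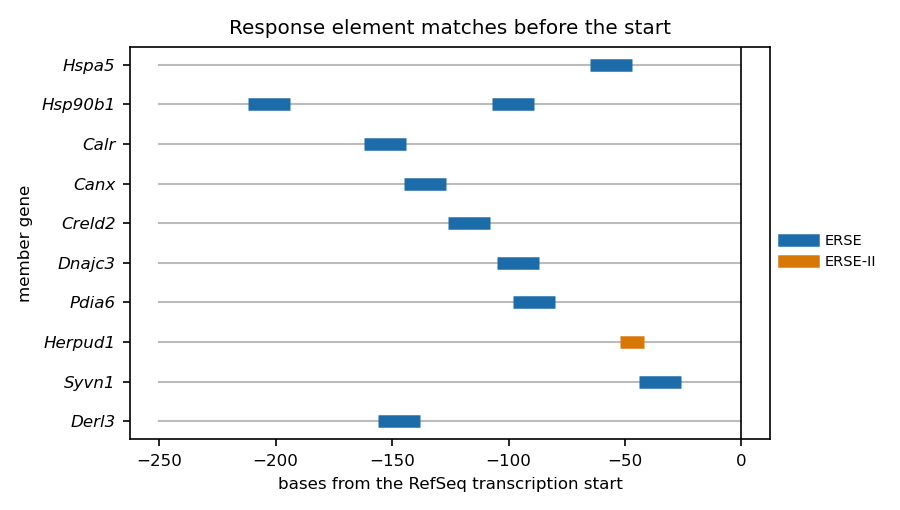
Position of each match to the ER stress response element (ERSE) or its second form (ERSE-II) in the promoters of 10 members, in bases from the RefSeq start at 0. Each bar spans the matched bases on a grey line that marks the 250 bases searched, and all matches lie between 212 and 26 bases before the start.

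Sequencing gave 11500920 to 19136317 fragments a library, with 4410399 to 6221181 of them assigned to genes. A count of 0 therefore allowed up to 0.482 to 0.680 CPM (counts scaled to library size). The limit is 3 counts over all fragments assigned to genes and reflects counting error alone. The other CPM values use the totals of the tested genes times TMM scaling factors, so the limit is approximate beside them. The targeted genes followed their labels, with Hspa1b at 28.7 to 81.1 CPM in WT and 0 to 0.657 CPM in KO, and Hspa1a at 3.99 to 9.77 and 0.163 to 1.64 CPM. Tumor epithelium was present in every library, with Epcam at 775 to 1471 CPM in WT and 628 to 984 CPM in KO. Since the labels do not number the animals, every p-value refers to the variation among these 9 samples, part of which may be technical.

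No member passed the test between KO and WT. With edgeR (quasi-likelihood, Benjamini-Hochberg adjustment over all genes), 0 of 36 members had an adjusted p under 0.05 (smallest 0.613), where 0.0886% of all 14665 genes tested were called. DESeq2 called 0 of 36 as well (smallest adjusted p 0.287), against 0.464% of all genes, and limma-voom with sample weights called 0, against 0.130% (19 genes). DESeq2 and limma-voom each gave 6 members an unadjusted p under 0.05, all lower in KO, where 4.99% and 4.86% of all genes were. The estimates of the members nevertheless lay mostly on the low side in KO: 33 of 36 had a negative log2 fold change, against 50.0% of all genes, and their median was -0.36, where that of all genes was -0.000078. At an unadjusted p under 0.05 by edgeR, 5 members were lower in KO, where 4.59% of all genes were, and 0 were higher, where 3.36% of all genes were. In bulk tissue, fewer cells of a type and less RNA per cell cannot be told apart.

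These counts depended on the library WT 1. It was the highest of the 9 libraries for 28 of 37 members (19.5% of all genes), so leaving it out raises their estimates by construction. Without it, 22 of 36 members had a negative log2 fold change (50.4% of all genes), the median was -0.095, and 1 member, Hyou1, was lower at an unadjusted p under 0.05 (3.33% of all genes). In that fit 0 members were called by edgeR, where 0.0874% of all genes were. Left out together with KO 3, which had the highest chaperone levels of its group, the count of negative values was 27 (50.4% of all genes) and the median -0.14. In that fit 4 members (Hspa5, Hyou1, Pdia4 and Pdia6) were lower at an unadjusted p under 0.05 by edgeR, where 3.37% of all genes were. This fit was added after seeing the data. KO 3 was the highest KO library for Hspa5, Pdia4 and Pdia6, so leaving it out lowers their KO means by construction. The fit is therefore no independent test of these genes. With age as a covariate the median was -0.58 and 19 members had an unadjusted p under 0.05, where 7.92% of all genes were lower at that level; only WT 2 was older than 125 days.

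**Figure D2:**
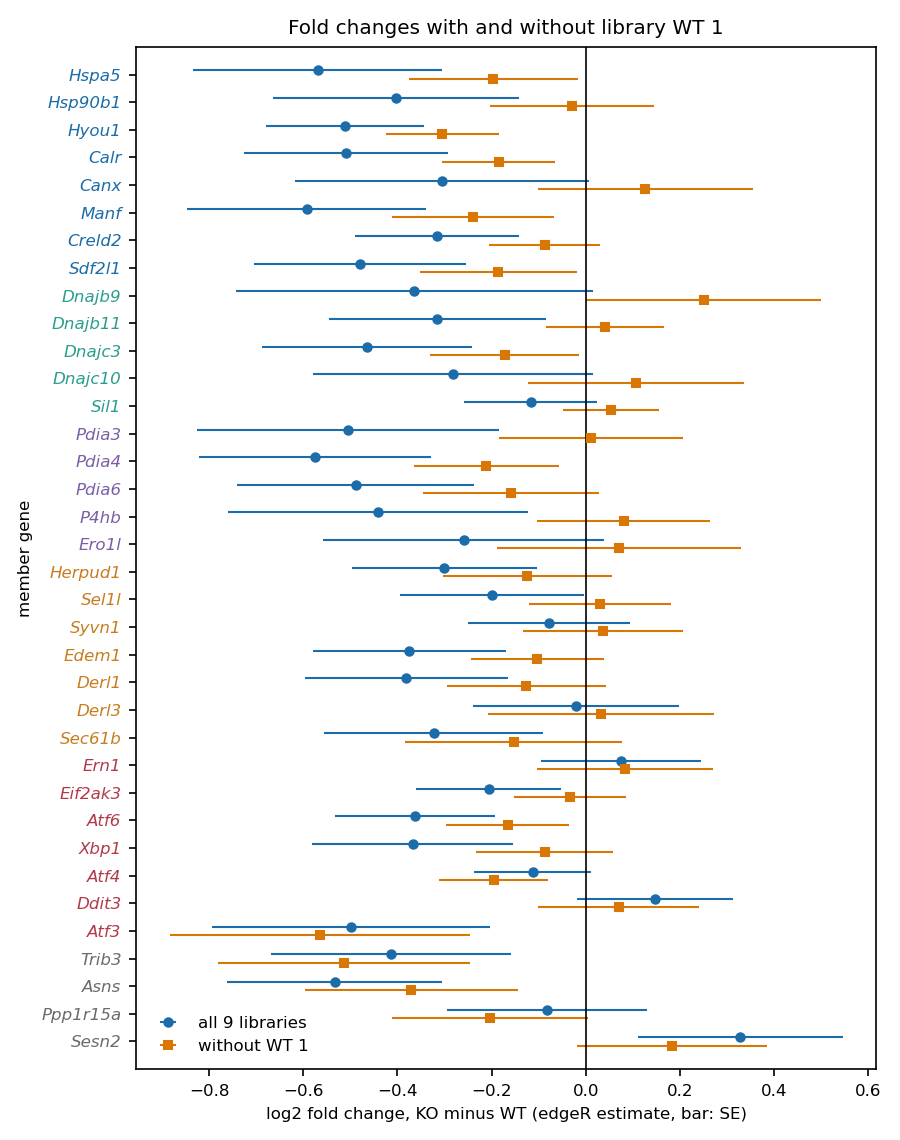
Log2 fold change of each of the 36 members tested, KO minus WT, with its SE, by edgeR from all 9 libraries (circles) and without WT 1 (squares), with gene names colored by role. Most circles lie left of 0, with a median of -0.36, and most squares lie closer to it, with a median of -0.095.

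WT 1 was the highest of the 9 libraries for 28 of 37 members, while it was the highest for 19.5% of all genes tested. These 28 included all 18 chaperones, J-domain proteins, exchange factor and oxidoreductases of the ER, 6 of 7 genes of degradation and translocation, 3 of 7 sensors and transcription factors, and 1 of 5 ATF4 and CHOP targets. Members above 1.5 times the mean of the other WT libraries in WT 1 numbered 26 of 36, against 16.8% of all genes. The median ratio of WT 1 to that mean was 2.06 for the chaperones, 2.13 for the J-domain group and 2.15 for the oxidoreductases, and it was 1.52 for degradation, 1.02 for the sensors and transcription factors and 0.69 for the ATF4 and CHOP targets. By these medians WT 1 held about the same excess in all 3 groups of the folding machinery and none in the ATF4 and CHOP targets. By summed level the ratio was 2.11 for the chaperones, 2.08 for the J-domain group and 2.52 for the oxidoreductases.

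Among the KO libraries, KO 3 was the highest for 14 of the 18 chaperones, J-domain proteins and oxidoreductases, where it was the highest of the 5 for 32.0% of all genes. In 12 of the 18 it was also above WT 2, WT 3 and WT 4. The summed level of the 8 chaperones was 3383 CPM in KO 3 and 2269 to 2634 CPM in the other KO libraries. In WT 1 it was 5919.6 CPM, and in the other WT libraries 2627 to 3042 CPM, which overlaps the KO range.

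Several other measures moved with these libraries. WT 1 and KO 3 had the smallest shares of unmapped fragments, 12.2% and 11.0%, where the others had 15.2% to 27.1%. WT 1 was the shallowest library, and KO 3 had the largest share outside annotated features, at 50.4%. The 8 milk protein genes, none of them at 0 in every library, summed to 16994 CPM in WT 1 and 8029 CPM in KO 3, the highest of each group. WT 4, however, had 12223 CPM of milk protein transcripts with chaperones at 2755 CPM, within the range of WT 2 and WT 3. In WT 2 and WT 3 the milk protein sums, 3377 and 5245 CPM, lay within the KO range of 2454 to 8029 CPM. The higher milk protein level in WT thus lay in WT 1 and WT 4, and the fit without WT 1 keeps WT 4. All 7 milk protein genes tested had negative estimates, KO against WT (median -3.32, and -2.69 with 6 negative without WT 1). In both fits 6 were lower at an unadjusted p under 0.05 by edgeR, where 4.59% and 3.33% of all genes were. DESeq2 called 4 of the 7, against 0.464% of all genes, and edgeR called 0, against 0.0886%. WT 1 and KO 3 were also the highest of each group for the 11 hypoxia genes, whose sum was 1272 CPM in WT 1 (WT 2 to 4: 1013 to 1191) and 1241 CPM in KO 3 (remaining KO libraries: 849 to 901). In WT 1, however, only 2 of the 11 genes were at their highest of the 9 libraries. Ldha alone gave 678 CPM there (WT 2 to 4: 462 to 562), and Ndrg1 was lowest of WT at 134 CPM (WT 2 to 4: 146 to 197). The part of mapping, milk synthesis and hypoxia in the levels of these libraries was not tested.

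**Figure D3:**
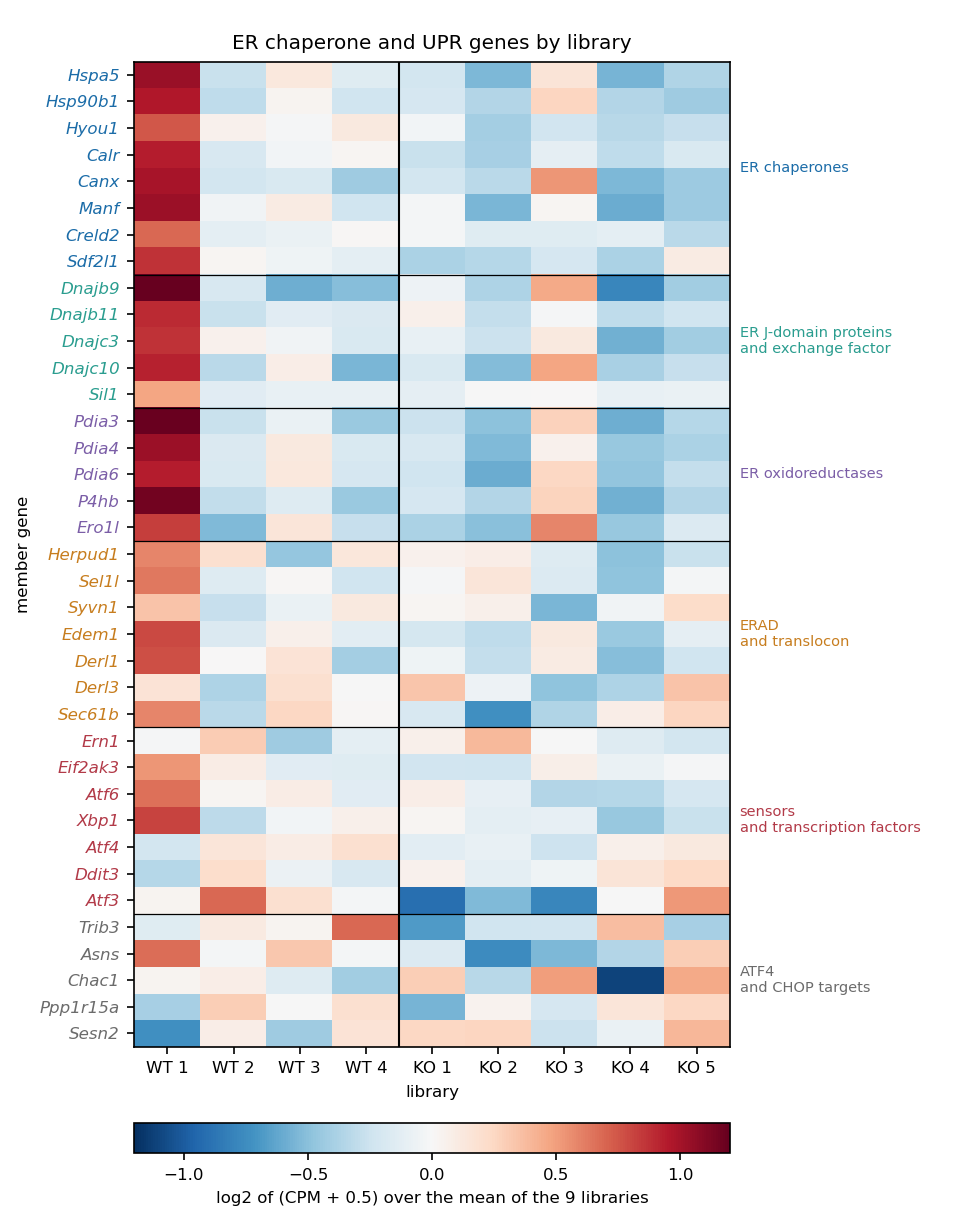
Level of each of the 37 members in each library, as log2 of CPM plus 0.5 over the gene's mean across the 9 libraries, with genes ordered by role and the WT and KO libraries divided by a line. The column of WT 1 is red in the 3 upper groups, where it was the highest library for 18 of 18 genes, and KO 3 is the reddest KO column for 14 of them.

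Chaperones of the ER had the most members near the threshold. All 8 had a negative log2 fold change (median -0.49; -0.19 without WT 1), 3 had an unadjusted p under 0.05 by edgeR and 1, Hyou1, had KO libraries that were all below the WT libraries. Hyou1 (ENSMUSG00000032115.14, chr9:44379490-44392369, GRCm38) encodes a large HSP70-like protein that acts as nucleotide exchange factor of BiP. It stood at 444, 274, 262 and 286 CPM in WT 1 to 4 and at 259, 199, 225, 209 and 218 CPM in KO 1 to 5. The groups did not overlap, and the closest libraries were WT 3 and KO 1. Over all genes tested, 1.26% had every KO library below every WT library and 1.44% had every KO library above. The log2 fold change of Hyou1 was -0.51 ± 0.17 (SE; edgeR unadjusted p = 0.0107, adjusted p = 0.613; exact two-sided permutation p = 0.0159, the smallest this test can give). Without WT 1 it was -0.30 ± 0.12 (edgeR unadjusted p = 0.0273, adjusted p = 0.740), and the KO libraries were still below the WT libraries, as for 2.33% of all genes. It was the only member for which this held.

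Calr (ENSMUSG00000003814.8, chr8:84841850-84846934) encodes calreticulin, the soluble lectin chaperone that binds glucosylated glycoproteins and ER calcium. Its level was 1418, 645, 723 and 751 CPM in the WT libraries and 614, 559, 686, 598 and 649 CPM in the KO libraries. WT 1 was far above all others, and WT 2 lay among the KO libraries, whose CV was 7.83% against 40.5% in WT. The log2 fold change was -0.51 ± 0.22 (edgeR unadjusted p = 0.0381, adjusted p = 0.616) and -0.19 ± 0.12 without WT 1 (unadjusted p = 0.152 by edgeR). Manf (ENSMUSG00000032575.16, chr9:106838312-106891979), a small ER-retained and secreted factor that binds BiP, stood at 133, 63.1, 69.6 and 54.8 CPM in WT and 64, 44.2, 66, 43 and 47.9 CPM in KO. WT 1 and, by a small margin, WT 3 lay above the KO libraries, and WT 2 and WT 4 lay among them. Its log2 fold change was -0.59 ± 0.25 (edgeR unadjusted p = 0.0384, adjusted p = 0.616), the most negative of the members, and -0.24 ± 0.17 without WT 1. Exons of Manf share 146 bases with Dcaf1 and 166 with an antisense transcript, so its counts are uncertain.

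Hspa5 (ENSMUSG00000026864.13, chr2:34771970-34777547), which encodes BiP, was measured at 1509, 611, 801 and 662 CPM in WT and 628, 505, 815, 497 and 572 CPM in KO. KO 3 was above WT 2, WT 3 and WT 4, so the groups overlapped. The means were 896 ± 417 CPM over the 4 WT libraries and 604 ± 129.8 CPM over the 5 KO libraries (SD), with a log2 fold change of -0.57 ± 0.26 (edgeR unadjusted p = 0.0541, adjusted p = 0.633; exact permutation p = 0.159). Without WT 1 it was -0.20 ± 0.18. Hsp90b1, the HSP90 of the ER, had WT 1 at 1307 CPM, the other WT libraries at 543 to 684 CPM and the KO libraries at 499 to 802 CPM, and its log2 fold change of -0.40 ± 0.26 was -0.029 ± 0.17 without WT 1. Exons of Hsp90b1 share 415 bases with a pseudogene on the opposite strand. On the same strand they share 84 bases with a processed transcript and 133 with a microRNA gene, so its counts are uncertain. Canx, which encodes calnexin, the membrane-bound partner of calreticulin, had estimates of opposite sign with all libraries, -0.31 ± 0.31, and without WT 1, 0.13 ± 0.23. The small stress-inducible lumenal proteins Creld2 (-0.32 ± 0.17) and Sdf2l1 (-0.48 ± 0.23) were at 32 to 56.5 and 15.7 to 31.6 CPM in WT and at 27.7 to 34.3 and 13 to 18.3 CPM in KO. Both ranges overlapped between the groups, and without WT 1 the estimates were -0.087 ± 0.12 and -0.19 ± 0.17.

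**Figure D4:**
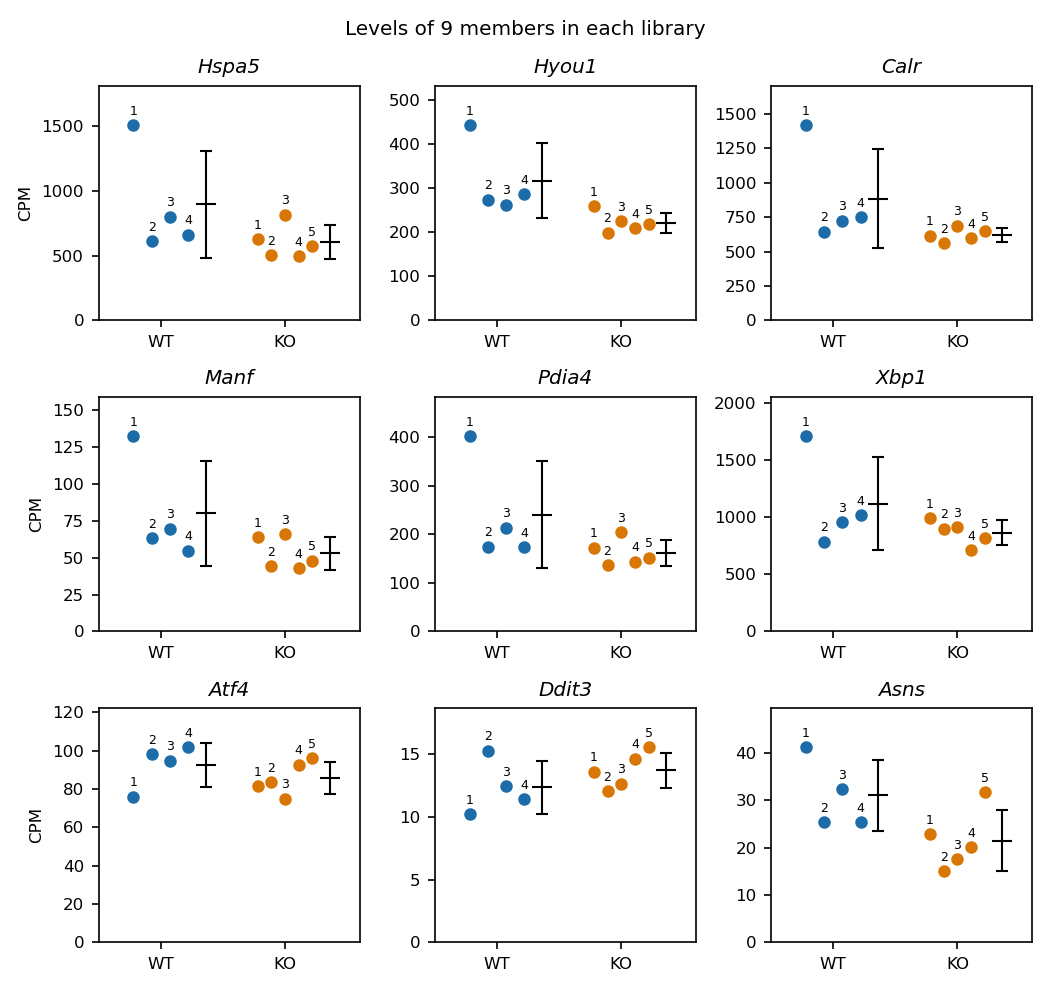
CPM of 9 members in each library, with the library number beside each point and the mean and SD of each group as a bar at its right. WT 1 is the highest point for Hspa5, Hyou1, Calr, Manf, Pdia4, Xbp1 and Asns and the lowest WT point for Atf4 and Ddit3.

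The J-domain proteins, which deliver chains to BiP and stimulate its ATPase, and the exchange factor Sil1 gave no sign that held across the fits. All 5 had negative estimates from the 9 libraries (median -0.32), 0 had an unadjusted p under 0.05 by edgeR, and without WT 1 only Dnajc3 remained negative, with a median of 0.053. Dnajb9, an inducible J-domain protein of the BiP cycle, had the widest spread of the members in WT: it was 98.1, 36.6, 27.8 and 29.3 CPM there and 40.2, 32.3, 57.5, 24.2 and 31.3 CPM in KO. WT 1 was 3.14 times the mean of the other WT libraries, and KO 3 stood above those 3 libraries. Its log2 fold change was -0.36 ± 0.38, and 0.25 ± 0.25 without WT 1. Dnajc3, which also restrains PERK, was at 259, 147, 137 and 125 CPM in WT and 133, 118, 154, 94.4 and 106 CPM in KO, with estimates of -0.46 ± 0.22 and -0.17 ± 0.16. Only WT 1 lay above the KO range. Dnajb11 (-0.32 ± 0.23) and Dnajc10 (-0.28 ± 0.30), the latter a reductase that helps unfold chains for disposal, were at 0.041 and 0.11 without WT 1. Sil1 varied least among the KO libraries of all members, at 40.6 to 43.7 CPM, a range that includes the levels of WT 3 and WT 4.

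The oxidoreductases, which form and rearrange disulfide bonds, had the largest excess of WT 1 among the groups, by summed level (2.52 times the mean of the other WT libraries). Their 5 members summed to 3533 CPM in WT 1, to 1264 to 1589.6 CPM in the other WT libraries, to 1959.6 CPM in KO 3 and to 1119 to 1393 CPM in the other KO libraries. All 5 estimates were negative (median -0.49), with 1 unadjusted p under 0.05 by edgeR, and without WT 1 the median was 0.011 with 2 of 5 negative. Pdia4 (ENSMUSG00000025823.9, chr6:47796141-47813430) was that member, at 403, 175, 214 and 173 CPM in WT and 173, 136, 205, 144 and 152 CPM in KO. KO 3 exceeded WT 2 and WT 4 and KO 1 was just below both, so the groups overlapped. Its log2 fold change was -0.58 ± 0.25 (edgeR unadjusted p = 0.0393, adjusted p = 0.616) and -0.21 ± 0.15 without WT 1. P4hb, the archetypal protein disulfide isomerase, was at 1403, 509, 564 and 462 CPM in WT and 547, 492, 754, 420.3 and 491 CPM in KO, and Pdia3, which pairs with calnexin and calreticulin, at 1167, 425, 486 and 376 and 429, 365, 622, 341 and 405 CPM. In both genes only WT 1 lay above KO 3. Their estimates were -0.44 ± 0.32 and -0.50 ± 0.32, and 0.080 ± 0.18 and 0.011 ± 0.20 without WT 1. Pdia6 stood at -0.49 ± 0.25 and Ero1l, the oxidase that recharges the isomerases, at -0.26 ± 0.30 (-0.16 and 0.070 without WT 1).

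Genes of ER-associated degradation and of the translocon had estimates closer to 0 than the chaperones; the difference between the groups of genes was not tested. All 7 were negative (median -0.30; -0.10 with 4 of 7 negative without WT 1), and 0 had an unadjusted p under 0.05 by edgeR. The estimates ran from -0.38 ± 0.22 for Derl1 and -0.37 ± 0.20 for Edem1, a lectin that marks misfolded glycoproteins, through -0.32 ± 0.23 for the translocon subunit Sec61b and -0.30 ± 0.20 for Herpud1, to -0.079 ± 0.17 for Syvn1 and -0.020 ± 0.22 for Derl3. Without WT 1 these 6 lay between -0.15 (Sec61b) and 0.037 (Syvn1). Sel1l, the partner of the ubiquitin ligase encoded by Syvn1, was the most abundant of them, at 531, 308, 345 and 289.6 CPM in WT and 339, 379, 305, 244 and 337 CPM in KO. KO 2 exceeded WT 2, WT 3 and WT 4. Syvn1 itself was at 119, 77.1, 88.7 and 101 CPM in WT and 95.1, 97.6, 63.9, 90.8 and 109 CPM in KO, and here KO 3 was the lowest library, unlike for the chaperones. Derl3 was likewise lowest in KO 3, at 11 CPM.

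The 3 sensors gave no common direction. Ern1 (ENSMUSG00000020715.9, chr11:106394650-106487852), which encodes IRE1 alpha, was at 82.6, 103, 62 and 77.2 CPM in WT and 87.1, 110.0, 83.4, 75.3 and 71.8 CPM in KO. WT 1, WT 2 and WT 4 lay within the KO range and WT 3 below it, and the estimate was 0.075 ± 0.17. Eif2ak3 (ENSMUSG00000031668.14, chr6:70844515-70905245), encoding PERK, was at 103, 75.5, 64.6 and 64 CPM in WT and 60.7, 60.0, 74.5, 67 and 70.1 CPM in KO. Only WT 1 and WT 2 lay above the KO libraries, the estimate was -0.21 ± 0.15 (-0.033 ± 0.12 without WT 1), and the gene shares 485 exon bases with a transcript on the opposite strand. Atf6 (ENSMUSG00000026663.6, chr1:170704674-170867771) was at 119, 76.1, 79.8 and 68 CPM in WT and 79.6, 70.2, 58.8, 59 and 65.3 CPM in KO. WT 1 and, by a small margin, WT 3 exceeded all KO libraries. The log2 fold change of Atf6 was -0.36 ± 0.17 (edgeR unadjusted p = 0.0561, adjusted p = 0.634) and -0.17 ± 0.13 without WT 1.

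Their transcription factors divided into Xbp1, which had its peak in WT 1, and the ATF4 arm, which did not. Xbp1 (ENSMUSG00000020484.19, chr11:5520659-5525893) was at 1707, 783, 954 and 1015 CPM in WT and 989.6, 897, 909, 711 and 812 CPM in KO. WT 1 and WT 4 were above every KO library, and WT 2 and WT 3 were among them; the estimate was -0.37 ± 0.21, or -0.087 ± 0.15 without WT 1. Atf4 (ENSMUSG00000042406.8, chr15:80255184-80257541) was at 76.1, 98, 94.7 and 102 CPM in WT and 81.6, 83.4, 74.9, 92.6 and 96.1 CPM in KO, so that WT 1 and KO 3 held the lowest levels of all. Its estimate was -0.11 ± 0.12, and -0.20 ± 0.12 without WT 1. Ddit3 (ENSMUSG00000025408.15, chr10:127290774-127296288), which encodes CHOP, a regulator of stress-induced death, was at 10.2, 15.3, 12.5 and 11.4 CPM in WT and 13.6, 12.1, 12.6, 14.6 and 15.6 CPM in KO. WT 1 was the lowest library and the groups overlapped, with an estimate of 0.15 ± 0.17 (0.070 ± 0.17 without WT 1). Exons of Ddit3 share 68 bases with Mars and 105 with another identifier of the same name. Atf3, a stress-induced repressor, ranged over 21.5 to 35.5 CPM in WT and 11.4 to 31.6 CPM in KO (-0.50 ± 0.29; -0.56 ± 0.32 without WT 1).

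The targets of ATF4 and CHOP, genes of amino acid supply and of feedback on the response, included the member with the fewest counts, Chac1. Of 4 tested, 3 had negative estimates with and without WT 1 (medians -0.25 and -0.29), and 1 had an unadjusted p under 0.05 by edgeR. That gene, Asns (ENSMUSG00000029752.12, chr6:7675169-7693254), encodes asparagine synthetase and was at 41.2, 25.3, 32.2 and 25.3 CPM in WT and 22.9, 15, 17.6, 20.0 and 31.6 CPM in KO. KO 5 was above WT 2 and WT 4, while the other KO libraries were below all WT libraries. Its log2 fold change was -0.53 ± 0.23 (edgeR unadjusted p = 0.0385, adjusted p = 0.616; exact permutation p = 0.0635) and -0.37 ± 0.23 without WT 1. The pseudokinase Trib3 was at -0.41 ± 0.25, and Ppp1r15a, which directs the phosphatase that reverses eIF2 phosphorylation, at -0.083 ± 0.21 (-0.20 ± 0.21 without WT 1). Sesn2, a stress-inducible inhibitor of mTORC1 signaling, had the most positive estimate of all members, 0.33 ± 0.22 (edgeR unadjusted p = 0.160), from 11.2, 20.1, 14 and 21.3 CPM in WT and 22.7, 22.8, 15.8, 17.9 and 25.1 CPM in KO. WT 1 was the lowest library, and without it the estimate was 0.18 ± 0.20. Chac1, a glutathione-degrading enzyme induced by ATF4, had 24 counts in WT and 42 in KO, summed over libraries, at 0.895 to 1.46 and 0.361 to 2.13 CPM, and was not tested.

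**Figure D5:**
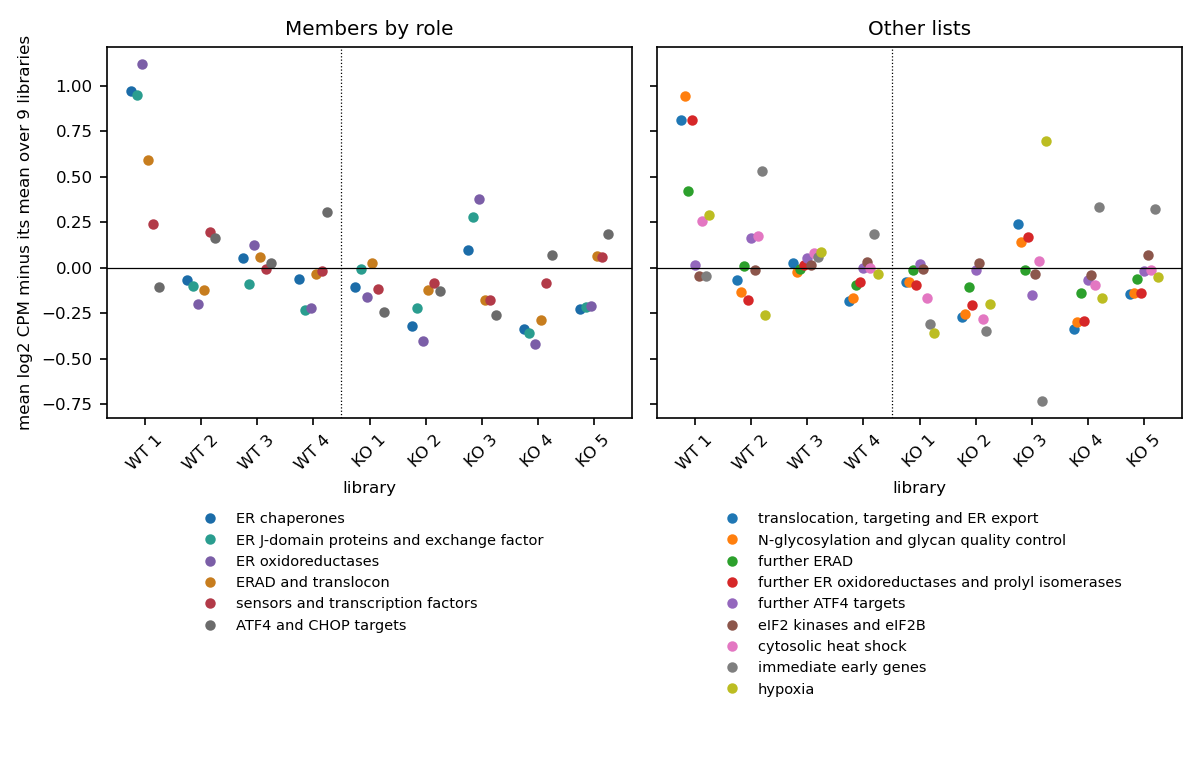
Mean log2 CPM of each group of members (left) and of other gene lists (right) in each library, less the list's own mean over the 9 libraries, with each point 1 list. Among the members, the chaperone, J-domain and oxidoreductase points stand highest in WT 1, with the ATF4 and CHOP targets below 0 there, and in KO 3 the oxidoreductase point is the highest of the member groups. Among the other lists plotted, the hypoxia point is the highest in KO 3 and that of the immediate early genes the lowest.

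Per kilobase of annotated exon, the level over all libraries was highest for Xbp1, at 300.2 CPM per kilobase, followed by Calr (256), P4hb (219), Hspa5 (173), Hsp90b1 (166), Pdia3 (163) and Canx (109). Neighbours in this order differed by less than the SD of either gene over the WT libraries. At the other end stood Sesn2 (5.46), Trib3 (4.74), Ppp1r15a (4.32) and Chac1 (0.829). The sensors lay low in the order, with Eif2ak3 at 11.8, Ern1 at 10.2 and Atf6 at 8.13 CPM per kilobase.

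The other genes of the pathway were taken from 8 further lists with 129 of 133 genes tested. By edgeR 0 were called, where 0.0886% of all genes were. At an unadjusted p under 0.05 by edgeR, 7 were lower and 1 higher, where 4.59% and 3.36% of all genes were. Negative estimates numbered 114 (median -0.24), against 50.0% of all genes. Without WT 1 the count of negative estimates was 87 (50.4% of all genes) and the median -0.051. In that fit 3 were lower at an unadjusted p under 0.05 by edgeR, where 3.33% of all genes were. All 15 genes of N-glycosylation and glycan quality control had negative estimates (median -0.37) and were highest in WT 1, at 2.21 times the mean of the other WT libraries when summed, and without WT 1 the median was 0.0067 with 7 of 15 negative. The 24 genes of translocation and ER export (median -0.34) and the 17 further oxidoreductases and prolyl isomerases (-0.35) had medians of -0.035 and -0.020 without WT 1. For the 26 further ATF4 targets tested the median was -0.15 with and -0.16 without WT 1. Among them Slc7a5, a subunit of a large neutral amino acid transporter, stood at 97, 58.1, 60.2 and 93.3 CPM in WT and 44.1, 52.1, 46, 51.6 and 53 CPM in KO. Every KO library was below every WT library, as for 1.26% of all genes, and WT 1 and WT 4 were well above the rest. The log2 fold change of Slc7a5 was -0.64 ± 0.17 (edgeR unadjusted p = 0.00308, adjusted p = 0.470) and -0.51 ± 0.16 without WT 1. The genes of eIF2 kinases and eIF2B (median -0.053) included the 1 gene that was higher, Eif2b3 (0.35 ± 0.15).

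Lists from outside the pathway were read in the same libraries. The 12 cytosolic heat shock genes all had negative estimates (median -0.23). Without WT 1 their median was -0.19 with 11 of 12 negative. In 3 of them, Hspb1 (-0.46 ± 0.15), Hsp90ab1 (-0.32 ± 0.13) and Hspa4l (-0.24 ± 0.11), all KO libraries were below the WT libraries, as for 1.26% of all genes. None of these 3 was called by edgeR. The 14 immediate early genes, which respond to tissue handling, summed to 828 to 1372 CPM in WT and 538 to 1068 CPM in KO, with the lowest sum in KO 3. Markers of plasma and B cells, a cell type rich in ER, summed to at most 16.9 CPM over 11 genes, and Jchain and Mzb1 were each below 1 CPM in every library. The 8 epithelial markers summed to 3479 to 6445 CPM in WT, with WT 2 the highest, and 3189 to 3842 CPM in KO. The 10 fibroblast markers summed to 762 to 1054 and 303 to 649 CPM, the 10 macrophage markers to 345 to 599.8 and 214 to 436 CPM, and the 9 endothelial markers, which were highest in WT 1, to 67.6 to 156 and 29.6 to 86.5 CPM. Estimates were negative for 8 of 8 epithelial and 9 of 10 fibroblast markers (medians -0.47 and -0.71). They were also negative for 10 of 10 macrophage and 9 of 9 endothelial markers (medians -0.57 and -0.82). Without WT 1 these medians were, in the same order, -0.28, -0.55, -0.55 and -0.25. Those of the 36 members tested were -0.36 with and -0.095 without WT 1. At an unadjusted p under 0.05 by edgeR, 3 epithelial, 6 fibroblast, 2 macrophage and 3 endothelial markers were lower, where 4.59% of all genes were. Without WT 1 these counts were 1, 4, 1 and 0 (3.33% of all genes). By edgeR 0 of these markers were called (0.0886% of all genes). DESeq2 called 2 fibroblast markers and 1 macrophage marker (0.464% of all genes). The 6 skeletal muscle markers went the other way, at 48.1 to 128 CPM in WT, with WT 1 the lowest, and 79.5 to 156 CPM in KO. All 5 tested had positive estimates (median 0.66, and 0.50 without WT 1). Of these, 2 had an unadjusted p under 0.05 by edgeR, where 3.36% of all genes were higher at that level. Of the basal and myoepithelial markers 4 of 7 had negative estimates (median -0.17), and of the adipocyte markers 3 of 4 tested did (median -0.18). No marker of these lists was at 0 in every library. The part of cell composition in the levels of the members was not tested.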

How the data were processed

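RNA was measured in 9 tumor libraries. The deposited table holds unnormalized counts per gene and library from the authors, arranged as STAR writes its gene counts. STAR 2.5.4a, Trimmomatic 0.36 and FastQC 0.11.5, with the build GRCm38, are named per the submitters' processing notes. Per the labels' protocols, ribosomal RNA was depleted and the libraries were stranded. Neither the strand setting nor the annotation release is given in the sources used here, so genes whose exons overlap others are uncertain. Entries that name no gene, among them 11.0% to 27.1% of fragments that were unmapped and 34.0% to 50.4% outside features, were kept out. Identifiers were matched to symbols in the reference annotation of GRCm38 (55141 of 55401).

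KO was tested against WT by the quasi-likelihood functions of edgeR 4.0.16 under R 4.3.3 (TMM factors, filterByExpr, genotype as the only term) over 14665 genes, two-sided, with Benjamini-Hochberg adjustment and calls at an adjusted p under 0.05. CPM uses the totals of the tested genes times the TMM factors. Single levels were compared by exact permutation of log2 CPM (prior count 2) over 126 assignments, with the smaller one-sided p doubled; counting absolute differences instead gave 0.0159 for Hyou1, 0.127 for Hspa5 and 0.0714 for Asns. DESeq2 1.42.0, limma-voom (limma 3.58.1) with sample weights, other scaling factors, other count filters, a threshold of 0.1, age, the sample number as a block, and leaving out libraries were the alternatives; samples 1 to 4 without the block, and leaving out WT 1 and KO 3, were added after seeing the data. The edgeR, DESeq2 and limma fits were tested on simulated data.

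The members and lists were chosen with earlier results of these data known, so no test over a list was made. Members are given by library if they had an unadjusted p under 0.05 or groups that do not overlap, and always for the sensors, their transcription factors and Hspa5; other members are examples. Outside the members, up to 3 genes of a list with the smallest p could be named. The promoters with an element are ranked by p of the gene. Protein sequences were not used here.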

Additional observations from a re-analysis of the deposited data

Results flagged for a closer look

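In a group of 4 or 5 libraries, a highest or lowest level was picked out when its gap to the nearest library, relative to the range of the group, passed Dixon's 95% critical value (0.829 or 0.710). Chance flags about 1 in 20 groups. Of 74 combinations of member and group, 15 were picked out, and the members share their libraries, so these are not independent.

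In WT, 11 members stood apart, each because WT 1 was far above the others. These were the chaperones Hyou1 (444 CPM), Calr (1418), Canx (1021), Creld2 (56.5) and Sdf2l1 (31.6), the J-domain proteins Dnajb9 (98.1), Dnajb11 (121) and Dnajc3 (259) with the exchange factor Sil1 (60.9), and the oxidoreductases Pdia3 (1167) and P4hb (1403). The summed levels in WT 1 stood apart for the chaperones (5919.6 CPM), the J-domain group (707), the oxidoreductases (3533) and degradation and translocation (1149). In KO, 4 members stood apart with KO 3 as the highest library: Hsp90b1 (802 CPM), Canx (742), Dnajc10 (123) and Ero1l (121).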

How the results depend on the processing

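No member was called under any alternative run, including an adjusted p under 0.1. Of 792 estimates of single members under the alternatives, 753 kept their sign and 39 took the other sign. Without WT 1 and WT 4 the other sign was taken by Canx (0.053), Ddit3 (-0.018), Derl3 (0.044), Dnajb11 (0.047), Dnajb9 (0.21), Ero1l (0.025), P4hb (0.0096), Sil1 (0.057) and Syvn1 (0.13). Without WT 1 and KO 3 the other sign was taken by Derl3 (0.13), Dnajb11 (0.0039), Dnajb9 (0.036), Sel1l (0.049), Sil1 (0.039) and Syvn1 (0.14). With limma-voom and sample weights the other sign was taken by Derl3 (0.038), Dnajb9 (0.0047) and Syvn1 (0.060). With library totals only it was taken by Derl3 (0.033). With age as a covariate it was taken by Ppp1r15a (0.077). When 1 library was left out, the log2 fold changes that changed sign ran from -0.54 to 0.13 for Canx, -0.13 to 0.081 for Derl3, -0.44 to 0.041 for Dnajb11, -0.58 to 0.25 for Dnajb9, -0.49 to 0.11 for Dnajc10, -0.033 to 0.21 for Ern1, -0.51 to 0.070 for Ero1l, -0.62 to 0.080 for P4hb, -0.69 to 0.011 for Pdia3, -0.20 to 0.025 for Ppp1r15a, -0.31 to 0.031 for Sel1l, -0.18 to 0.053 for Sil1 and -0.17 to 0.037 for Syvn1. The cause was not tested.

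The median of the members was -0.078 without WT 1 and WT 4 and ran from -0.46 (without WT 4) to -0.095 (without WT 1) when 1 library was left out; it was -0.19 with limma-voom and sample weights, with 30 members negative. The count of members lower at an unadjusted p under 0.05, 5 in all, was 10 with no count filter, 1 with library totals only, 2 with upper quartile factors, 0 without WT 1 and WT 4, and 1 to 11 when 1 library was left out, with 1 without WT 1 or KO 2, 2 without KO 4, 10 without WT 2 and 11 without WT 4, where 2.62% to 5.73% of all genes were. Over all genes, 13 were called by edgeR, 68 by DESeq2, 29 with no count filter, 6 at a mean count of at least 50, 6 in samples 1 to 4 without the block, and 6 to 13 when 1 library was left out.

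Samples of the 2 groups share only numbers: the correlations of same-numbered samples were -0.024, 0.38, 0.11 and 0.38, and WT 1 correlated best with KO 3 (0.57). With the replicate block, 9 genes and 0 members were called, the median of the members was -0.27 and 8 members were lower at an unadjusted p under 0.05 (5.72% of all genes); without the block the same samples gave 6 genes, 0 members, -0.35 and 4 (5.18%). The members with the fewest counts, Chac1 above all, are limited by depth.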

Other observations

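The genes outside the list that hold the ER stress response element in the same window numbered 26, of which 5 passed the count filter. Their median log2 fold change was 0.024, with 2 of 5 negative: Alg12 (-0.40 ± 0.23), a mannosyltransferase of N-glycan assembly, and Adcy3 (-0.43 ± 0.41), an adenylate cyclase. Hnrnpa3, Acacb and Pan2 were at 0.024 ± 0.12, 0.036 ± 0.28 and 0.28 ± 0.22. The 9 members with the element had a median of -0.40, all negative, and 1 of them, Calr, had an unadjusted p under 0.05 by edgeR. These values rest on WT 1: without it the median was -0.087 with 6 of 9 negative, Canx, Syvn1 and Derl3 being positive, and none had an unadjusted p under 0.05. The 5 other genes then had a median of -0.12, with 3 of 5 negative. Among the 9 members, with all libraries, Syvn1 (-0.079 ± 0.17) and Derl3 (-0.020 ± 0.22) had the smallest estimates, and both were lowest in KO 3 among the 9 libraries, where Canx and Hsp90b1 were the highest of the KO libraries.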
